A study of Mus musculus with 18 samples.

Results

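Transient receptor potential (TRP) channel genes known from sensory neurons were measured by RNA sequencing of cultured dorsal root ganglion (DRG) neurons from mice. The members were the 9 rows of the deposited gene table that carry the symbols Trpv1, Trpv2, Trpa1, Trpm8, Trpm2, Trpm3, Trpm7, Trpc1 and Trpc6, out of 17198 genes, and all 9 were present and passed the filter on low values. The cultures were either wild type (WT) or heterozygous for Dynlrb1(tm1a/+) (HET), with time points of 12, 24 and 48 h, whose start the labels do not name. Each of the 6 groups had 3 replicates, each called a culture here, so 18 samples were compared. Tm1a is a knockout-first allele of Dynlrb1, which encodes a light chain of the motor cytoplasmic dynein, and the HET cells keep a WT copy. The labels name no Cre driver and no age, and they do not say whether a culture came from 1 animal or from a pool. They also do not say that replicates came from separate cultures or animals, so p-values measure only the spread between these samples, which may be technical.

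TRP channels are cation channels whose opening lets calcium and sodium into the cell. In DRG neurons several of them are the molecular sensors of heat, cold and irritants: Trpv1 responds to capsaicin and painful heat, Trpa1 to pungent and reactive chemicals, Trpm8 to menthol and cooling, and Trpm3 and Trpm2 contribute to heat and warmth sensing. Others, such as Trpm7, a channel fused to a protein kinase, and the TRPC channels, are found in many cell types and serve magnesium balance or signalling downstream of phospholipase C.

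All 9 members are protein-coding genes in the annotation (GENCODE, GRCm38), and the identifiers in the deposited table matched it. Trpv1 (ENSMUSG00000005952) lies on chr11:73234292-73261242 and Trpv2 (ENSMUSG00000018507) on chr11:62574486-62600515, both on the plus strand. Trpa1 (ENSMUSG00000032769) lies on chr1:14872648-14918862, minus strand, and Trpm8 (ENSMUSG00000036251) on chr1:88277661-88389293, plus strand. Trpm2 (ENSMUSG00000009292) lies on chr10:77907722-77970563, minus strand, Trpm7 (ENSMUSG00000027365) on chr2:126791565-126876230, minus strand, and Trpm3 (ENSMUSG00000052387) on chr19:22139046-22995410, plus strand, where it spans 856 kb. Trpc1 (ENSMUSG00000032839) lies on chr9:95705082-95750375, minus strand, and Trpc6 (ENSMUSG00000031997) on chr9:8544142-8680741, plus strand.

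Promoters are shown for 3 members, picked after their values were seen: Trpm7 was the most even member, and Trpv1 and Trpc6 were among those whose WT and HET cultures did not overlap at 48 h. The windows hold the 250 bases upstream of the RefSeq transcription start (GRCm38.p6), 5′ to 3′ on the gene's strand. Capitals mark CpG dinucleotides and, in Trpv1, the Runx motif.
Trpm7 (chr2:126876262-126876511, minus strand): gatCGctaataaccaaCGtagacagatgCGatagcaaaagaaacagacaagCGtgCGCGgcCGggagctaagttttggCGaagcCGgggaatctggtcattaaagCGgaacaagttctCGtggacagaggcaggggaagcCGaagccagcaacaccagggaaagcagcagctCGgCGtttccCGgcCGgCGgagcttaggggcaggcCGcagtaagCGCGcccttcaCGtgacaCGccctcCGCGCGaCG
Trpc6 (chr9:8543892-8544141, plus strand): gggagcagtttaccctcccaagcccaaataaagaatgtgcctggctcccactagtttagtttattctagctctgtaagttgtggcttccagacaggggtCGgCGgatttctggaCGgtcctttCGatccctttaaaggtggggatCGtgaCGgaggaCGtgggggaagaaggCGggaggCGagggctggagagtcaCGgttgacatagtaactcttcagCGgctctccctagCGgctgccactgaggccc
Trpv1 (chr11:73233899-73234148, plus strand): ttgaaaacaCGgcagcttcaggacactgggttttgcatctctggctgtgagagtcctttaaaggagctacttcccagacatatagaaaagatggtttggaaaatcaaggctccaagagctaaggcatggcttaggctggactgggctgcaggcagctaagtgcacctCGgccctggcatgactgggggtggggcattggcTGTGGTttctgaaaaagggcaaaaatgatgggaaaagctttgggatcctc
The Trpm7 window held 26 CpG dinucleotides and was 60.4% G+C, the Trpc6 window held 12 and was 56.4% G+C, and the Trpv1 window held 2 and was 50.8% G+C. The median over 32851 RefSeq windows of the same length was 6 CpG dinucleotides and 52.4% G+C. RefSeq windows were matched for 8 of the 9 members, Trpa1 being the other. Both strands were searched for a Runx motif (TGTGGT, in 14.1% of all windows), an AP-1 motif (TGANTCA, 6.75%), a cyclic AMP response element (TGACGTCA, 1.55%), a GC box (GGGCGG, 32.7%) and a TATA box (TATAAA, 12.4%). The Runx letters occurred in the Trpv1 window and in 1 of the Trpm3 windows, the TATA box letters in the Trpm8 and Trpm2 windows, and the GC box letters 3 times in the Trpc1 window and 1 time in that of Trpm2. None of these motifs was found in the Trpm7, Trpc6 and Trpv2 windows. A match is a run of letters and not a measured binding site.

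The normalized count of Dynlrb1 in HET cultures did not overlap that in WT cultures at any time. At 48 h it was 3346 ± 123 (SD, n = 3) in HET cultures. The WT level at that time was 6015 ± 348 (SD, n = 3). All 10 pan-neuronal genes checked were above 1 FPKM (fragments per kilobase of transcript, scaled to library size) in every culture, and their summed level ran only from 4571 to 5998 FPKM. Other cell types were present, and the levels of their markers differed between times. The summed level of 8 satellite glia and Schwann cell markers went from 724 ± 141 FPKM (SD, n = 3) in WT at 12 h to 266 ± 24.1 FPKM (SD, n = 3) at 48 h, while that of 6 fibroblast markers went from 62.8 ± 24.2 to 126 ± 25.0 FPKM (SD, n = 3). Neutrophil and red cell markers (6 genes) ranged from 7.38 to 233 FPKM in WT at 12 h and from 3.80 to 5.15 FPKM at 48 h. In bulk RNA, fewer cells of a type and less RNA per cell cannot be told apart, and the part of these shifts in the results below was not tested. No gene of the table was at 0 in any culture. Culture 3 of HET at 48 h stood apart: its neutrophil and red cell markers summed to 69.6 FPKM against 5.85 in the lowest culture of the group, its 4 dividing cell markers to 1.44 against 9.03 in the highest, and its 7 peptidergic nociceptor genes to 2137 against 1159 in the lowest. Log2 fold changes of members that it moved by more than 1.5 times, and calls of members that it changed, are given with and without it.

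Per transcript length, the channels of the TRPV family were the most abundant members. Averaged over the 18 cultures, Trpv2, a channel of medium and large sensory neurons, stood at 59.7 ± 8.16 FPKM (SD, n = 18) and Trpv1 at 48.0 ± 12.0 FPKM (SD, n = 18). Together they made up 63.3% ± 0.94 (SD, n = 3) of the summed FPKM of the 9 members in WT at 12 h and 71.5% ± 0.61 (SD, n = 3) at 48 h. Trpa1 followed at 17.5 ± 7.93 FPKM (SD, n = 18), and Trpc1 and Trpm7 at 12.7 ± 1.98 and 9.34 ± 0.55 FPKM (SD, n = 18). The other 4 members were lower: Trpm3 at 5.52, Trpm8 at 4.02, Trpc6 at 3.36 and Trpm2 at 2.53 FPKM. Among all genes in the table, Trpv2 stood at percentile 92.7 and Trpm2 at percentile 37.3.

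The order was not fixed. In WT at 12 h, Trpv2, Trpv1, Trpa1, Trpc1, Trpm7, Trpm3, Trpm8, Trpc6 and Trpm2 followed each other from high to low, and the ranges of neighbours overlapped for Trpv2 and Trpv1, for Trpm7, Trpm3 and Trpm8, and for Trpc6 and Trpm2. In WT at 48 h, Trpa1 stood at 6.94 ± 2.24 FPKM (SD, n = 3), below Trpm7 at 9.84 ± 0.50 FPKM (SD, n = 3) and Trpc1 at 9.74 ± 1.02 FPKM (SD, n = 3), and the ranges of Trpm7 and Trpc1 and of Trpc1 and Trpa1 overlapped. Trpc6 was last in WT at 48 h at 0.87 ± 0.34 FPKM (SD, n = 3), and its range did not overlap that of Trpm2. In HET at 48 h Trpc6 stood at 3.74 ± 1.40 FPKM (SD, n = 3), above Trpm8 and Trpm2, with a range that overlapped that of Trpm8. The most even member was Trpm7, whose highest culture was 1.29 times its lowest, and the least even was Trpc6, at 24.9 times.

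**Figure D1:**
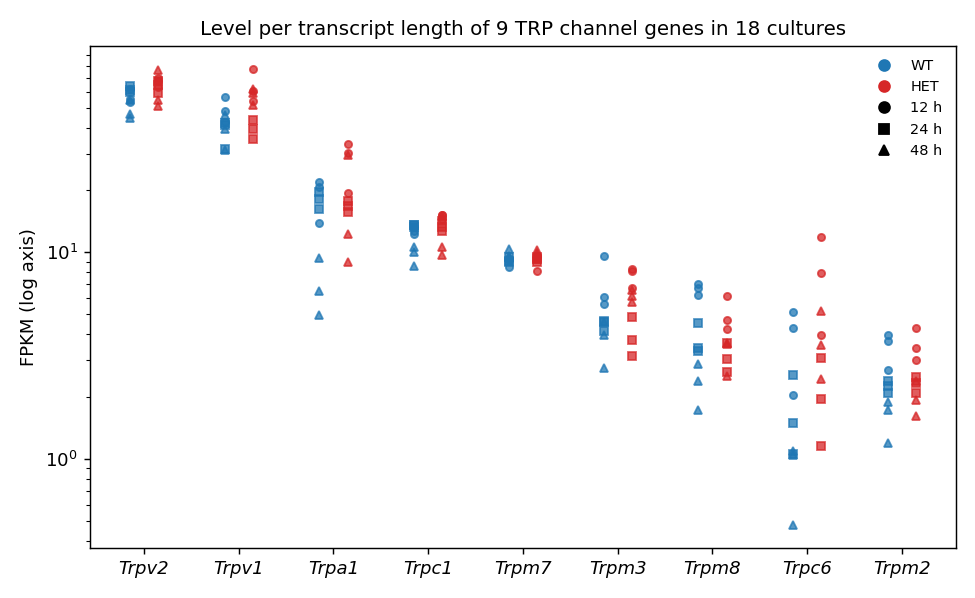
Level of each TRP channel gene in FPKM on a log axis. Each point is 1 culture, blue for WT and red for HET, with circles for 12 h, squares for 24 h and triangles for 48 h. Trpv2 and Trpv1 lie above the other members, Trpm7 is the most tightly grouped, and Trpc6 is the most spread.

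In WT cultures, 6 of the 9 channels fell between 12 and 48 h: Trpa1, Trpm8, Trpm2, Trpm3, Trpc1 and Trpc6. None rose. In limma with Benjamini-Hochberg adjustment over all genes, 17.1% of the 17198 genes were called lower, 30.0% higher and 47.1% in either direction. The groups did not overlap for 7 of the 9 members and for 55.3% of all genes. The median log2 fold change was -0.90 over the 9 members and 0.11 over all genes, and the latter was 0.01 on the authors' other, plain adjusted columns. On those columns Trpv1 (-0.45, limma adjusted p = 0.0318) and Trpv2 (-0.34, limma adjusted p = 0.0408) also passed, which made 8. The columns also differed in the split of all calls, with 5152 genes higher and 2946 lower on the normalized counts and 4177 higher and 3760 lower on the plain columns. Other genes of sensory neurons were called in the same interval. Of 7 peptidergic genes 5 fell and 1, Adcyap1, rose, 7 of 11 non-peptidergic and itch neuron genes fell, and 6 of 8 genes of large myelinated neurons fell. Of the 10 pan-neuronal genes 4 rose (Tubb3, Isl1, Pou4f1 and Elavl4) and 2 fell. Of the 8 glia markers 4 fell and 1 rose, and 6 of 6 neutrophil and red cell markers fell. Values that follow are normalized counts, log2 fold changes are on the log2(normalized count + 1) scale, which understates changes of low genes, and each exact permutation test of 3 cultures against 3 is two-sided and cannot go below p = 0.1.

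Trpm8, the cold and menthol receptor, had normalized counts of 986, 1070 and 1124 in WT at 12 h, of 533, 723 and 550 at 24 h and of 379, 275 and 461 at 48 h. The 3 groups did not overlap, and each later group lay below the earlier one. From 12 to 48 h Trpm8 fell by 1.54 on the log2 scale (SE 0.20, limma adjusted p = 4.33e-05), which left 0.344 of the 12 h level. Trpm8 was also the only member called between 12 and 24 h in WT (-0.83, SE 0.20, limma adjusted p = 0.0353), where 0.657% of all genes were called lower and 2.96% higher, 3.62% in all. Between those times 4 members (Trpv1, Trpm8, Trpm2 and Trpm3) had groups that did not overlap, against 26.9% of all genes. This early call was lost when any of the 6 cultures compared was left out (limma adjusted p from 0.0505 to 0.133). In the authors' deposited edgeR results for this interval, the false discovery rate was under 0.05 for Trpm8 (0.00545), Trpm3 (0.0275) and Trpm2 (0.0348). The share of all genes under that rate is not given here.

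Trpa1, the receptor for mustard oil and other irritants, had 2443, 3682 and 3885 at 12 h and 3199, 2885 and 3461 at 24 h in WT, and 1148, 878 and 1657 at 48 h. The 12 and 24 h groups overlapped, and every 48 h culture lay below every earlier one. The 48 h level was lower than the 12 h level by -1.46 on the log2 scale (SE 0.33, limma adjusted p = 0.00191), and than the 24 h level by -1.42 (SE 0.33, limma adjusted p = 0.00674). Between 24 and 48 h in WT, 4 members were called, all lower (Trpv2, Trpa1, Trpm8 and Trpc1), against 10.3% of all genes called lower and 27.7% in either direction. Groups did not overlap for 6 of the 9 members, against 46.0% of all genes. Trpa1 was thus called in the second interval and Trpm8 in both, and whether the intervals differ was not tested.

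Trpm3, a heat sensor that also responds to the steroid pregnenolone sulfate, had 1698, 1556 and 2673 in WT at 12 h, 1161, 1275 and 1294 at 24 h and 1101, 764 and 1283 at 48 h. Its 12 h cultures lay above all later ones, and the 24 and 48 h groups overlapped. The change from 12 to 48 h was -0.90 (SE 0.20, limma adjusted p = 0.00175). Trpm2, a channel opened by ADP-ribose and oxidative stress that is also known from immune cells, had 1130, 1197 and 816 at 12 h, 724, 629 and 685 at 24 h and 522, 360 and 568 at 48 h. Its 3 groups did not overlap, and the change from 12 to 48 h was -1.12 (SE 0.19, limma adjusted p = 2.30e-04).

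Among the TRPC channels, which open downstream of phospholipase C, Trpc6 had 277, 583 and 698 in WT at 12 h, 202, 143 and 346 at 24 h and 141, 64.8 and 147 at 48 h. Every 48 h culture was below every 12 h culture, although the 24 h cultures overlapped both groups. Its change from 12 to 48 h, -2.12 (SE 0.48, limma adjusted p = 0.00182), had the widest interval of the 9, from -3.13 to -1.11. Trpc1 had 1661, 1591 and 1534 at 12 h and 1249, 1078 and 1327 at 48 h, a change of -0.39 (SE 0.12, limma adjusted p = 0.0154). Without WT 48 h culture 2, the change of Trpc1 was -0.31 and did not pass (limma adjusted p = 0.0860).

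The remaining members did not pass from 12 to 48 h in WT. Trpv1, the capsaicin receptor, had 4496, 5049 and 5917 at 12 h, 4433, 3314 and 4318 at 24 h and 4143, 3257 and 4852 at 48 h. Its 12 and 48 h groups overlapped (log2 fold change -0.35, SE 0.16, limma adjusted p = 0.0848), and without WT 48 h culture 3 it passed (-0.48, limma adjusted p = 0.0295). Trpv2 had 6108, 7057 and 6333 at 12 h, 7315, 6990 and 6800 at 24 h and 5348, 5099 and 6210 at 48 h. Its change from 12 to 48 h was -0.23 (SE 0.12, limma adjusted p = 0.129), and without HET 48 h culture 3, which enters through the shared spread, it passed (limma adjusted p = 0.0333). From 24 to 48 h Trpv2 fell by 0.35 on the log2 scale (SE 0.12, limma adjusted p = 0.0422), a call that was lost without any 1 of the WT 24 h cultures, WT 48 h culture 1 or 2, or HET 12 h culture 5 (limma adjusted p from 0.0516 to 0.157).

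Other calls between 24 and 48 h in WT rested on single cultures as well. Trpm8 (-0.71) was not called without WT 24 h culture 2 (limma adjusted p = 0.0860) or WT 48 h culture 2 (limma adjusted p = 0.0948), and Trpc1 (-0.47) was not called without WT 48 h culture 2 (limma adjusted p = 0.0687). Without that last culture, Trpa1 was the 1 member called. Trpm2 had a log2 fold change of -0.51 over the same interval and did not pass (limma adjusted p = 0.0520). It passed in 5 of the 18 fits that left out 1 culture, those without WT 12 h culture 5, WT 48 h culture 3, HET 12 h culture 2, or HET 48 h culture 1 or 3 (limma adjusted p from 0.0312 to 0.0478).

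Trpm7, the channel kinase of magnesium balance, had 2729, 2518 and 2743 in WT at 12 h, 2810, 2655 and 2680 at 24 h and 2843, 2819 and 3086 at 48 h. The 48 h cultures lay slightly above all 12 h cultures. Its difference of 0.13 on the log2 scale (SE 0.080, limma adjusted p = 0.191) had a 95% interval from -0.04 to 0.30. The estimated sizes of the 6 falls lie beyond it, but the Trpc1 fall had a 95% interval from -0.66 to -0.13. Whether Trpm7 differs from these members was not tested.

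**Figure D2:**
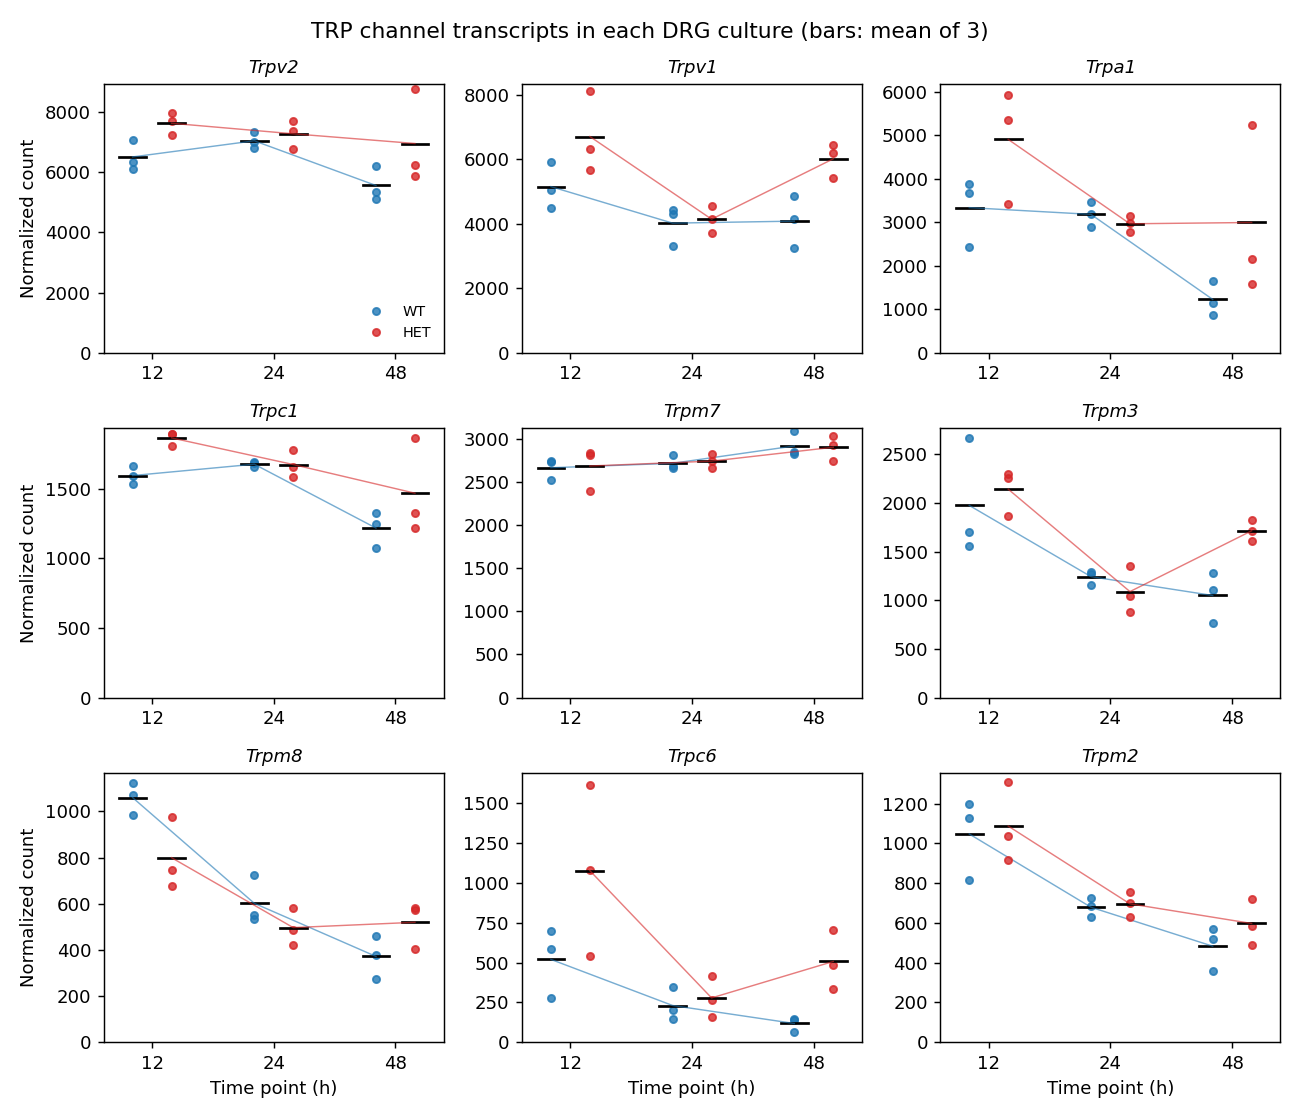
Normalized count of the 9 TRP channel genes in every culture, with the time point on the x axis. Points are cultures (blue WT, red HET), black bars are means of 3 and lines join the means. The means of Trpv1, Trpa1, Trpm8, Trpm2, Trpm3 and Trpc6 are highest at 12 h in both genotypes. In HET the means of Trpv1, Trpm3 and Trpc6 are lowest at 24 h. So are those of Trpa1 and Trpm8, which lie only slightly below their 48 h means.

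In HET cultures, 5 members fell from 12 to 24 h, Trpv1, Trpm8, Trpm2, Trpm3 and Trpc6, against 5.76% of all genes called lower in limma, 13.1% higher and 18.9% in either direction. Groups did not overlap for 7 members, and for 38.4% of all genes. Trpv1 had 5685, 8105 and 6334 in HET at 12 h, 3722, 4567 and 4146 at 24 h and 6185, 5424 and 6441 at 48 h. All 24 h cultures lay below all others, and the change from 12 to 24 h was -0.68 (SE 0.16, limma adjusted p = 0.00810). Trpm3 had 1867, 2300 and 2261 at 12 h, 878, 1348 and 1042 at 24 h and 1829, 1607 and 1708 at 48 h, with a change from 12 to 24 h of -0.99 (SE 0.20, limma adjusted p = 0.00395). Trpc6 had 539, 1611 and 1078 at 12 h, 155, 414 and 264 at 24 h and 483, 331 and 706 at 48 h, with a change of -1.92 (SE 0.48, limma adjusted p = 0.0111). For these 3 genes the 48 h mean was above the 24 h mean, by a log2 difference of 0.54 for Trpv1 (limma adjusted p = 0.0735), 0.67 for Trpm3 (limma adjusted p = 0.0757) and 0.91 for Trpc6 (limma adjusted p = 0.312). None of the 9 members passed between 24 and 48 h in HET (0 in limma, 2 at an unadjusted p under 0.05 against 19.1% of all genes, and 2.49% of all genes called, 1.42% higher and 1.08% lower), but Trpm3 passed without WT 12 h culture 5 (limma adjusted p = 0.0465) and Trpc1 without HET 48 h culture 3 (-0.40, limma adjusted p = 0.00951). With all cultures the change of Trpc1 was -0.21 (limma adjusted p = 0.365).

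The calls of the first interval in HET depended on single cultures, apart from that of Trpm3. Without HET 12 h culture 2, which had the highest Trpv1 and Trpc6 counts, Trpv1 (-0.54, limma adjusted p = 0.0615) and Trpc6 (-1.56, limma adjusted p = 0.0768) did not pass. Trpc6 did not pass without HET 24 h culture 1 either (limma adjusted p = 0.0579). Trpm8 (-0.68, limma adjusted p = 0.0256) and Trpm2 (-0.63, limma adjusted p = 0.0285) were each lost without HET 12 h culture 1 or 2 or HET 24 h culture 1 or 5, with limma adjusted p up to 0.109 and 0.154. Trpa1, at 3424, 5933 and 5355 in HET at 12 h and 2768, 2976 and 3152 at 24 h, did not pass (-0.69, SE 0.33, limma adjusted p = 0.156), although its groups did not overlap. It passed without HET 48 h culture 3 (limma adjusted p = 0.0395).

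From 12 to 48 h in HET, 2 members were called, both lower, against 3.62% of all genes called lower and 14.2% in either direction. Groups did not overlap for Trpm8, Trpm2 and Trpm3, against 29.7% of all genes. Trpm8 went from 977, 748 and 675 to 574, 404 and 581 (-0.62, SE 0.20, limma adjusted p = 0.0467). Trpm2 went from 1040, 1307 and 915 to 490, 583 and 720 (-0.86, SE 0.19, limma adjusted p = 0.0152). The Trpm2 call was lost without HET 12 h culture 2 or HET 48 h culture 1 or 2 (limma adjusted p from 0.0670 to 0.0913), and that of Trpm8 in 11 of the 18 fits that left out 1 culture (limma adjusted p from 0.0508 to 0.215).

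Culture 3 of HET at 48 h decided how many members were called over this interval. Trpa1 stood at 1586, 2166 and 5234 in HET at 48 h, the last value being that of culture 3, and it overlapped the 12 h values (-0.87, SE 0.33, limma adjusted p = 0.0839). Without culture 3 its change was -1.36 (limma adjusted p = 0.00136). Trpc1, at 1894, 1893 and 1811 at 12 h and 1215, 1324 and 1867 at 48 h, likewise went from -0.37 (limma adjusted p = 0.0539) to -0.56 (limma adjusted p = 7.42e-04). Trpv2, at 7218, 7944 and 7689 at 12 h and 6228, 5859 and 8749 at 48 h, went from -0.16 (limma adjusted p = 0.393) to -0.33 (limma adjusted p = 0.0151). Without culture 3, 5 members were called lower, these 3 with Trpm8 and Trpm2, and 8.61% of all genes were called lower, against 3.62% with it. Trpm7 was near level in HET too, with 2836, 2398 and 2817 at 12 h, 2737, 2820 and 2664 at 24 h and 2930, 3026 and 2747 at 48 h.

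**Figure D3:**
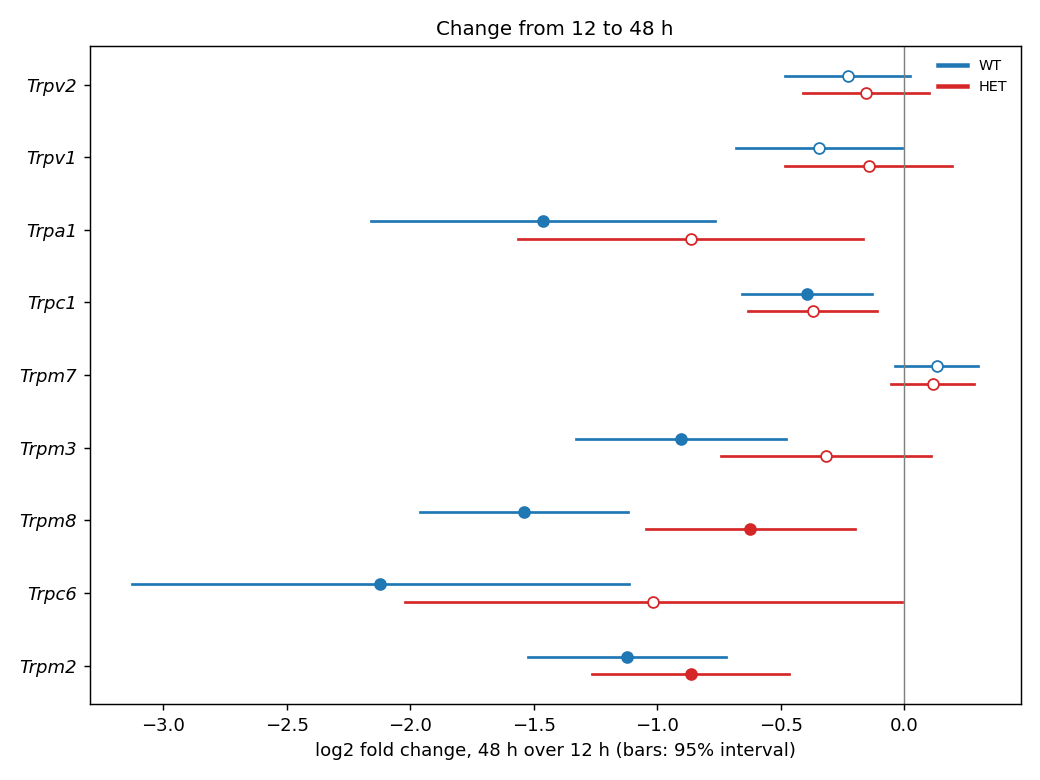
Log2 fold change from 12 to 48 h for each TRP channel gene in WT (blue) and HET (red) cultures, with 95% intervals. Filled points passed the limma threshold and open points did not. The falls of Trpa1, Trpm8, Trpm2, Trpm3, Trpc1 and Trpc6 passed in WT, those of Trpm8 and Trpm2 in HET, and Trpm7 lies just above 0 in both.

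The difference in time course between the genotypes was tested directly. For the change from 12 to 48 h, limma called 0 members and 0.00% of all genes, and 1 member, Trpm8, had an unadjusted p under 0.05, as did 8.92% of all genes. The fall of Trpm8 was smaller in HET by a log2 difference of 0.92 (SE 0.28, limma adjusted p = 0.548). For the change from 24 to 48 h, 0 members and 0.00% of all genes were called, and 5 members had an unadjusted p under 0.05: Trpc6 (1.87, SE 0.67), Trpa1 (1.24, SE 0.47), Trpm3 (0.95, SE 0.28), Trpm8 (0.77, SE 0.28) and Trpv1 (0.52, SE 0.23), with limma adjusted p from 0.180 to 0.272. Of all genes, 16.0% had an unadjusted p under 0.05. Without HET 48 h culture 3 the Trpa1 difference was 0.74 (limma adjusted p = 0.463). For the change from 12 to 24 h, 0 members and 0.00% of all genes were called, with 0 members at an unadjusted p under 0.05. In these fits without a block, a call in WT and no call in HET was not shown to be a difference between them.

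Between genotypes at the same time, no member passed in limma without a replicate block. Dynlrb1 itself passed at 24 h (limma adjusted p = 0.0390) but not at 12 h (limma adjusted p = 0.0655) or 48 h (limma adjusted p = 0.0501). A gene that did not pass was thus not shown to be equal between genotypes. At 12 h limma called 0 members and 0.00581% of all genes, and 3 members had an unadjusted p under 0.05, as did 8.41% of all genes. Of the 9, 8 had a positive log2 fold change, with a median of 0.23 against -0.02 over all genes. Trpc6 was at 277, 583 and 698 in WT and 539, 1611 and 1078 in HET, groups that overlapped (1.02, SE 0.48, limma adjusted p = 0.591). Trpv1 was higher by 0.37 in HET (SE 0.16, limma adjusted p = 0.577) with overlapping groups. Trpm8 was the exception in sign: all 3 HET cultures lay below all WT cultures (-0.42, SE 0.20, limma adjusted p = 0.591, exact permutation p = 0.1). Trpv2 and Trpc1 did not overlap at 12 h either, with higher values in HET, and 15.1% of all genes did not overlap. At 24 h the members differed little, with log2 fold changes from -0.28 for Trpm8 to 0.25 for Trpc6, 0 called in limma, 0 at an unadjusted p under 0.05 and 0.00581% of all genes called. No member was without overlap at 24 h, against 5.60% of all genes. The Trpc6 difference at 24 h changed sign without WT culture 2 (-0.04) or HET culture 2 (-0.09).

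At 48 h, 8 of the 9 members again had a higher mean in HET, by a median log2 fold change of 0.49 against -0.03 over all genes, but 0 passed in limma, as did 0.00% of all genes. Dynlrb1 did not pass at this time either (limma adjusted p = 0.0501), although its groups did not overlap. An unadjusted p under 0.05 was found for 6 of the 9, and for 22.0% of all genes. Trpc6 stood at 141, 64.8 and 147 in WT and at 483, 331 and 706 in HET, groups that did not overlap. The HET level was 4.35 times the WT level, a log2 difference of 2.12 (SE 0.48) that did not pass (limma adjusted p = 0.0502, exact permutation p = 0.1). Trpv1 stood at 4143, 3257 and 4852 in WT and at 6185, 5424 and 6441 in HET, also without overlap (0.57, SE 0.16, limma adjusted p = 0.0671). Trpm3, at 1101, 764 and 1283 in WT and 1829, 1607 and 1708 in HET, did not overlap either (0.74, SE 0.20, limma adjusted p = 0.0646). These 3 of 9 members without overlap compare with 24.0% of all genes.

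Trpa1, at 1148, 878 and 1657 in WT and 1586, 2166 and 5234 in HET, overlapped between genotypes at 48 h (1.14, SE 0.33, limma adjusted p = 0.0744). Trpm8 overlapped too (0.49, SE 0.20, limma adjusted p = 0.163), as did Trpv2 (0.30, SE 0.12, limma adjusted p = 0.155), Trpm2 (0.32, SE 0.19, limma adjusted p = 0.341) and Trpc1 (0.25, SE 0.12, limma adjusted p = 0.247). Without HET 48 h culture 3 the last 2 differences were 0.17 for Trpm2 and 0.06 for Trpc1. Trpm7 was at 2843, 2819 and 3086 in WT and 2930, 3026 and 2747 in HET, and its log2 difference of -0.01 had a 95% interval from -0.18 to 0.16. The sign of this value was positive on the plain columns and after quantile normalization. Without HET 48 h culture 3 the Trpm7 difference was 0.03.

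No gene of any cell type list passed between genotypes at 48 h in limma without the block, a fit that called 0.00% of all genes. The summed level of non-peptidergic and itch neuron genes ran from 326 to 369 FPKM in WT and from 387 to 526 FPKM in HET, and that of peptidergic genes from 1099 to 1389 and from 1159 to 2137 FPKM. Macrophage markers summed to 77.5 to 129 FPKM in WT and to 46.4 to 70.2 FPKM in HET. The median log2 difference was 1.36 over the 11 non-peptidergic genes, 0.48 over the 7 peptidergic genes and -0.19 over the 5 macrophage markers. It was 0.06 over the 8 glia markers and 0.07 over the 8 genes of large myelinated neurons. Larger shifts were seen over the 6 neutrophil and red cell markers (1.89) and the 4 dividing cell markers (-1.29). The median was -0.33 over pericyte and smooth muscle markers, -0.23 over fibroblast markers, 0.12 over endothelial markers and 0.01 over pan-neuronal genes. The part of these cell types in the values of the channels was not tested.

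The replicate numbers paired the cultures of the 2 genotypes at 48 h, with correlations of their deviations of 0.321, 0.209 and 0.461. By the same rule they did not pair the cultures of different times, nor the genotypes at 12 or 24 h. With the number as a block shared across the times, limma called 5 members at 48 h, all higher in HET: Trpa1 (limma adjusted p = 0.00449), Trpc6 (limma adjusted p = 0.00844), Trpm3 (limma adjusted p = 0.0263), Trpv1 (limma adjusted p = 0.0285) and Trpv2 (limma adjusted p = 0.0375). The same fit called 10.4% of all genes. It also called 6 of 11 non-peptidergic and itch neuron genes, 5 of 7 peptidergic genes and 2 of 10 pan-neuronal genes. It called 3 of 4 dividing cell markers, 3 of 6 neutrophil and red cell markers and 2 of 5 pericyte and smooth muscle markers. Of the other lists it called 1 of 6 fibroblast, 1 of 5 macrophage, 0 of 5 endothelial and 0 of 8 glia markers. None of the 8 genes of large myelinated neurons was called. A block within each time, chosen after seeing the data, called the same 5 members and Trpm8 (limma adjusted p = 0.0327). In the authors' deposited table the false discovery rate was under 0.05 for 4 members at 48 h, Trpc6 (4.37e-04), Trpa1 (0.00280), Trpm3 (0.0155) and Trpv1 (0.0218). For these last 2 sources the share of all genes is not given here, so their counts are no result particular to the members.

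These 48 h calls depended on which cultures entered. Without HET 48 h culture 3, 0 members were called with or without the shared block. In the block fit, WT 48 h culture 3 was then alone under its number and dropped out of the comparison too. The log2 fold changes in that fit were 2.05 for Trpc6, 0.90 for Trpm3, 0.88 for Trpa1, 0.66 for Trpv1 and 0.21 for Trpv2. Without HET 48 h culture 3 and without the block they were 1.85 for Trpc6, 0.74 for Trpm3, 0.64 for Trpa1, 0.52 for Trpv1 and 0.13 for Trpv2. Trpm3 and Trpv1 were thus nearly as large as with that culture, while Trpa1 and Trpv2 were smaller by more than 1.5 times. The lowest limma adjusted p values without it were 0.251, for Trpc6 and Trpm3, and with the block 0.0647, for Trpa1. Without WT 48 h culture 3, 5.41% of all genes were called, and 4 members passed: Trpv1 (0.71, limma adjusted p = 0.0315), Trpa1 (1.38, limma adjusted p = 0.0383), Trpm3 (0.90, limma adjusted p = 0.0316) and Trpc6 (2.33, limma adjusted p = 0.0289). Without HET 48 h culture 1, 4.28% of all genes were called and 2 members passed, Trpa1 (limma adjusted p = 0.0387) and Trpc6 (limma adjusted p = 0.0436). Trpc6 alone passed without HET 48 h culture 2, HET 12 h culture 2 or HET 24 h culture 1 (limma adjusted p from 0.0397 to 0.0486), fits that called from 0.983% to 2.98% of all genes.

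**Figure D4:**
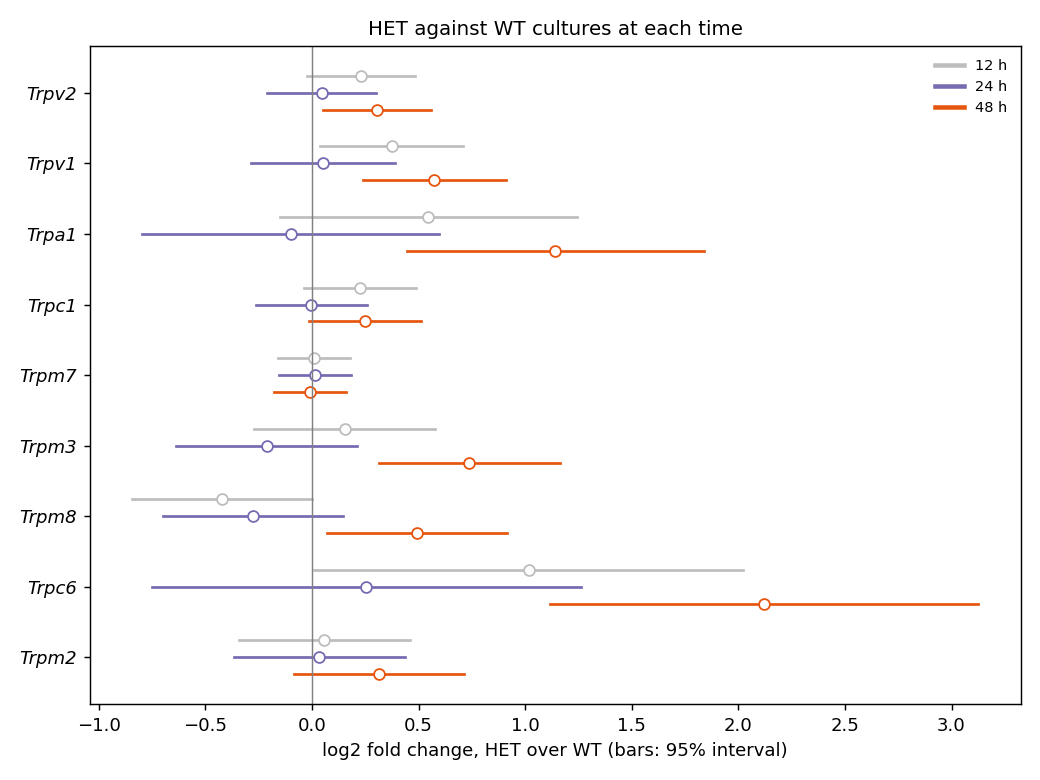
Log2 fold change of HET over WT for each TRP channel gene at 12 h (grey), 24 h (purple) and 48 h (orange), with 95% intervals. All points are open because no member passed the limma threshold in the fit without a block. At 48 h the points lie above 0 for 8 members, with Trpc6 at 2.12, and for Trpm7 at -0.01, a value whose sign flips on the plain columns.

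Averaged over the 3 times, 0 members passed in limma, against 0.0174% of all genes called (0.0116% higher), and 5 had an unadjusted p under 0.05, as did 13.5% of all genes. The averaged log2 fold change was 1.13 for Trpc6 (SE 0.28, limma adjusted p = 0.310) and 0.33 for Trpv1 (SE 0.092, limma adjusted p = 0.310). It was 0.53 for Trpa1 (SE 0.19, limma adjusted p = 0.313) and 0.19 for Trpv2 (SE 0.070, limma adjusted p = 0.313). With genotype permuted within each time, a two-sided exact permutation test of 8000 arrangements gave p = 0.0085 for Trpc6, 0.00875 for Trpv1, 0.00975 for Trpv2 and 0.035 for Trpa1, unadjusted, where the smallest possible p is 0.00025. The fifth, Trpc1, averaged 0.16 (SE 0.072, limma adjusted p = 0.356, exact permutation p = 0.0285, unadjusted). Without HET 48 h culture 3 the Trpc1 average was 0.096 (limma adjusted p = 0.542). Trpm8 averaged -0.07 (exact permutation p = 0.673). The exact permutation p was 0.178 for Trpm3, 0.264 for Trpm2 and 0.893 for Trpm7.

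Of 19 other TRP family genes, 17 were in the table, 4 of them above 1 FPKM in every culture. From 12 to 48 h in WT 3 were higher and 5 lower in limma, against 30.0% and 17.1% of all genes, with a median of 0.12. Mcoln1, a lysosomal channel, rose from a mean normalized count of 2767 to 3296 (log2 fold change 0.25, limma adjusted p = 0.0237), and Trpm4, a calcium-activated channel, from 798 to 996 (0.32, limma adjusted p = 0.0361). Trpc7 fell from 63.9 to 28.0 (-1.27, limma adjusted p = 0.0137) and Trpv3, a warmth-sensitive channel best known from skin, from 22.8 to 7.82 (-1.70, limma adjusted p = 0.0253). Between genotypes, 0 of the 17 passed at 12, 24 or 48 h in limma without the block, with 1 at an unadjusted p under 0.05 at each time, and 2 passed at 48 h with the block, which called 10.4% of all genes.

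Of 23 regulators and partners of TRP channels, 4 were higher and 10 lower from 12 to 48 h in WT in limma, against 30.0% and 17.1% of all genes, with a median of -0.28. Bdkrb2, the bradykinin receptor that sensitizes Trpv1 and Trpa1 through phospholipase C, fell from 433 to 148 (-1.56, limma adjusted p = 1.84e-04), and Prkce, a protein kinase C that phosphorylates Trpv1, fell from 12070 to 5273 (-1.20, limma adjusted p = 6.70e-05). Cdk5, a kinase that also acts on Trpv1, rose from 3477 to 6651 (0.93, limma adjusted p = 0.00014). Hrh1, a histamine receptor of itch neurons, rose from a mean of 782 at 12 h to 1911 at 24 h in WT (1.28, limma adjusted p = 0.0329) and was at 876 at 48 h (-1.17 from 24 h, limma adjusted p = 0.0114). From 24 to 48 h in WT, 3 regulators were higher and 7 lower, against 17.4% and 10.3% of all genes, among them Bdkrb2 (limma adjusted p = 0.00343), Kif13b, a kinesin that carries Trpv1 (-0.90, limma adjusted p = 0.00637), and Cdk5 (0.81, limma adjusted p = 0.00343).

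In HET from 12 to 48 h, 1 regulator was higher and 4 lower, against 10.6% and 3.62% of all genes. Cdk5 rose (0.51, limma adjusted p = 0.0318), and Bdkrb2 (-0.97, limma adjusted p = 0.0239) and Ptger4, a prostaglandin E2 receptor (-0.69, limma adjusted p = 0.0187), were among those that fell. From 12 to 24 h in HET, 2 were higher and 7 lower, against 13.1% and 5.76% of all genes, among them Hrh1 (1.43, limma adjusted p = 0.00497) and Plcb3, a phospholipase C of nociceptors (-1.11, limma adjusted p = 0.00340). Cdk5r1, the activator of Cdk5, fell over that interval (-0.78, limma adjusted p = 0.00624) and rose from 24 to 48 h (0.74, limma adjusted p = 0.0369), while Hrh1 fell from 24 to 48 h (-1.53, limma adjusted p = 0.0239). Between genotypes 0 of 23 regulators passed at 12, 24 or 48 h in limma without the block, although 12 had an unadjusted p under 0.05 at 48 h (3 and 0 at the earlier times), where 22.0% of all genes had one. The block brought 5 past the threshold at 48 h, and 10.4% of all genes.

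As a description across the 18 cultures, which share groups and deposited scaling, the members fell into partly different patterns. The log2 values of Trpv1 correlated with those of Trpc6 at r = 0.90 and of Trpm3 at r = 0.86, but with those of Trpv2 at only 0.43. Trpa1 correlated with Trpc1 at r = 0.91 and with Trpv2 at r = 0.88, and Trpm8 with Trpm2 at r = 0.82. Trpm7 had negative correlations with all 8 other members, from -0.61 with Trpm2 to -0.14 with Trpv1.

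Among 12476 genes with a mean normalized count of at least 100, the 3 most like each member were named by their correlation over the 18 cultures. For Trpv1 they were Eml1 (r = 0.97), Rab27b and Gpd1l. For Trpa1 they were Cyp2j12 (r = 0.98), Cpn1 and Gabbr1, and for Trpc6 Adk (r = 0.99), Acpp and A3galt2. Trpv2 was most like Leprotl1 (r = 0.96), Actr1b and Kctd8, and Trpm3 most like Atp8a1 (r = 0.97), Cpeb4 and Kcnn2. Trpm8 was most like Dzank1 (r = 0.97), Sf1 and Ppp1r10, Trpc1 most like Fyn (r = 0.97), Zranb1 and Snhg1, and Trpm2 most like C3 (r = 0.97), a complement gene, followed by Prkar1b and Hpcal1. The level Trpm7 had its nearest gene at a lower likeness, Zfp952 (r = 0.86), then Pcdhga10 and Zmym4.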

How the data were processed

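RNA from 18 samples of cultured DRG neurons was measured. Groups and replicate numbers came from the sample titles. The authors deposited 1 gene table. Per the file headers it holds normalized counts, a signal adjusted by the authors to nearly equal totals (41509705 to 41509874), plain adjusted columns, FPKM, and the authors' log2 fold changes and p-values with false discovery rates. The deposited rank score was not used in a test. The submitters' processing notes name CASAVA 1.8.2, edgeR and mm10, with no role; aligner, counting, annotation and gene filter are not given in the sources used here. The values hold 15 of 17 possible directions among samples, so 2 are missing, and the residual degrees of freedom may be too many; a fit with them as covariates was 1 alternative. Depth per sample is unknown, so no counting intervals were computed.

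As the values are not counts, log2(normalized count + 1) was fitted with limma 3.58.1 in R 4.3.3, with 1 coefficient per group, all 18 samples, eBayes with trend (12 residual and 4.97 prior degrees of freedom), a minimum mean of 1 that removed no gene, and Benjamini-Hochberg adjustment over 17198 genes within each of 13 comparisons, at a threshold of 0.05. Alternatives changed the pseudocount, filter, scaling, columns, samples and block, or left out each culture. The replicate block was shared across the times, except in the alternative with a block within each time. Single genes were also given a two-sided exact permutation test. The script was tested on simulated data. Pairing rests on the replicate numbers in the titles: deviations from group means of same-numbered cultures correlated over 0.1 in every pair only between genotypes at 48 h (0.209 to 0.461). Named genes were all 9 members, up to 4 genes per comparison with the largest change past the threshold and no overlap from each list of other TRP genes and of regulators, and the 3 genes most like each member. Members and lists were chosen with earlier results of these data known. Gene identifiers of all 9 members matched GENCODE M21 (GRCm38). Some genes that this rule names are not reported here.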

Additional observations from a re-analysis of the deposited data

How the results depend on the processing

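Among the log2 fold changes in the text, none of those that passed the threshold changed direction under the alternatives tried. Only 2, neither past the threshold, changed direction. Trpm7 between genotypes at 48 h was 0.020 on the plain adjusted columns, 0.0067 after quantile normalization and 0.073 with the block and without HET 48 h culture 3, and with 1 culture left out it ranged from -0.038 to 0.034. Trpc6 between genotypes at 24 h ranged from -0.088 to 0.617 with 1 culture left out. The fits with another pseudocount, without a filter or with the 2 missing directions as covariates left every count of members called as it was. With the replicate number as a block, the count of members called was 5 between genotypes at 48 h (10.4% of all genes) and 2 for the average over times (Trpa1 and Trpc6; 1.19%), against 0 without. It was 2 from 12 to 24 h in WT (7.08%; 1 without), 5 from 12 to 48 h in HET (29.6%; 2 without), 1 from 24 to 48 h in HET (12.1%) and 1, Trpa1 (limma adjusted p = 0.0346), for the genotype difference in the 24 to 48 h change (2.70%). Without HET 48 h culture 3, the block called 0 members for the average (limma adjusted p = 0.103 for both) and 0 for that difference (Trpa1, limma adjusted p = 0.139). It called 7, 5 and 6 (6, 4 and 5 without) from 12 to 48 h and 24 to 48 h in WT and from 12 to 24 h in HET, beside 51.4%, 38.5% and 24.1% of all genes, and 0 in the remaining comparisons. By the correlations of deviations, the numbers paired the cultures only for HET against WT at 48 h, where 6 of 6 samples correlated best with their own number (5 of 6 at 12 h and 3 of 6 at 24 h). A block within each time, chosen after seeing the data, gave 6 at 48 h, 4 for the average and 4 for the difference in the 24 to 48 h change. At 48 h between genotypes, a minimum mean of 10 and quantile normalization each gave 1 (Trpc6). A fit to the 6 samples compared alone gave 0 from 12 to 48 h in HET. For the block within each time and the fits named after it, the share of all genes called is not given here. Their counts are thus no result particular to the members.

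Leaving out 1 culture at a time, the count ranged from 0 to 4 between genotypes at 48 h, from 0 to 1 from 12 to 24 h in WT, from 5 to 7 from 12 to 48 h in WT and from 1 to 5 from 24 to 48 h in WT. In HET it ranged from 1 to 6 from 12 to 24 h, from 0 to 5 from 12 to 48 h and from 0 to 1 from 24 to 48 h. Where this left 2 cultures in a group, the pooled spread of all groups was used. The share of all genes called also moved between these fits, as given above for 48 h between genotypes and for 12 to 48 h in HET. The cause of these changes in count was not tested. Depth is unknown, so counting error could not be separated from the spread between cultures.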
